A study of Homo sapiens with 8 samples.

Results

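The RNA bound by Argonaute 2 (Ago2) in L1236 cells transduced with an empty vector (EV) was compared with the total RNA (T) of the same cells. The Ago2 immunoprecipitate (IP) and T of the EV cells were labelled separately in Cy3 and Cy5, so 4 of the 8 channels of the series describe these cells. Of the 22282 probes in the deposited table, 21493 were flagged well above background by the scanner software in both T channels. Of these, 15098 probes could be named and belonged to 10847 genes, of the 11130 genes named in the whole table. Each gene was read at its probe with the highest mean T signal.

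L1236 is a cell line derived from Hodgkin lymphoma. The EV group was a retrovirally transduced, GFP-sorted pool carrying the control vector without sponge sites. The other population of the series, used here only side by side, carried a miR-155 sponge in the same vector. Each group was 1 RNA sample of 1 cell line, and IP and T shared each of the 2 EV arrays. No p-value is given. Errors marked ± are SDs between both dye orientations (array 1 with IP in Cy5 and T in Cy3, array 2 the reverse), a labelling and hybridisation error without any spread between cultures or precipitations. IP/T divides the IP signal of a probe by its T signal. Because the deposited values were quantile normalised, IP and T have the same distribution of signals, so IP/T ranks transcripts against each other and carries no absolute share of a transcript on Ago2. RNA from an isotype control precipitate was not analysed here.

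Ago2 holds a microRNA and, with it, the transcripts the microRNA pairs to. Pairing rests mainly on the seed, the bases near the 5′ end of the microRNA, and usually falls in the 3′ untranslated region of the target. Proteins of the TNRC6 family then recruit deadenylases and the decapping machinery, and the transcript is translated less and decays faster. In B cells and Hodgkin lymphoma, miR-155, the let-7 and miR-17 families, miR-142 and miR-21 are among the well-known members. Transcripts paired to abundant microRNAs are therefore the ones that an Ago2 precipitate is used to find.

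The mature sequences below (RefSeq, GRCh38.p14) show the microRNAs behind the lists of known targets described further on, with the seed, bases 2 to 8, in capitals. The first 6 belong to families of lymphoid cells, and the last 2 are textbook microRNAs of muscle and liver.
miR-155-5p: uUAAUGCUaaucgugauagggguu
let-7a-5p: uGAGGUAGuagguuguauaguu
miR-17-5p: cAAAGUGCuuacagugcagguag
miR-142-3p: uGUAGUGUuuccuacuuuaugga
miR-21-5p: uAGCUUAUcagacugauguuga
miR-16-5p: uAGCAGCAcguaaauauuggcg
miR-1-3p: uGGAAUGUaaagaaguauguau
miR-122-5p: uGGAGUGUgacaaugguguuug
In that build, the miR-155-5p sequence lies at chr21:25573983-25574006 on the plus strand and miR-17-5p at chr13:91350618-91350640 on the plus strand. The miR-142-3p sequence lies at chr17:58331245-58331267 on the minus strand and miR-21-5p at chr17:59841273-59841294 on the plus strand. Perfect pairing to bases 2 to 8 needs AGCATTA in the target for miR-155, CTACCTC for let-7, GCACTTT for miR-17 and ACACTAC for miR-142. The 8 seeds all differ, although those of miR-1 and miR-122 share their first bases. Transcript sequences were not searched here.

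The spread of IP/T was lopsided. The median over genes was −0.20 on the log2 scale, with the 10th percentile at −1.32 and the 90th at 1.52. At the probe level, 3518 of 21493 probes (16.4%) had an IP/T of at least 2 and 4231 (19.7%) a T/IP of at least 2, so 45.4% of the probes past 2-fold were higher in IP. After normexp background correction with loess and Aquantile normalisation this split was 62.5%, with 2174 probes higher and 1306 lower in IP. The filter on T took probes past 2-fold from the IP side only. Without it, the deposited values gave 3927 probes higher in IP and still 4231 higher in T, a split of 48.1%. At the gene level the counts were 1848 of 10847 (17.0%) higher in IP and 2101 (19.4%) higher in T, while 6898 (63.6%) lay between. Further out the order turned. An IP/T of at least 4 was found for 609 genes against 111 genes with a T/IP of at least 4. At 16-fold, the counts were 47 against 1.

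Both dye orientations gave close values, in a table that the authors had already filtered on the consistency of Cy3 and Cy5. Detected probes left out of it had a median SD of 0.46. The Pearson correlation of IP/T between them was 0.95 across the 21493 probes, which share the slide and the 2 RNA samples, and the median SD of a gene in the table was 0.16. Of the genes past 2-fold in the mean, 1617 were past it in each orientation in the direction of IP and 1654 in the direction of T. IP was not well above background in either IP channel for 36 of the probes, and 32 of these had a T/IP of at least 2. Every gene named below with a T/IP of at least 2 was well above background in both IP channels.

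**Figure D1:**
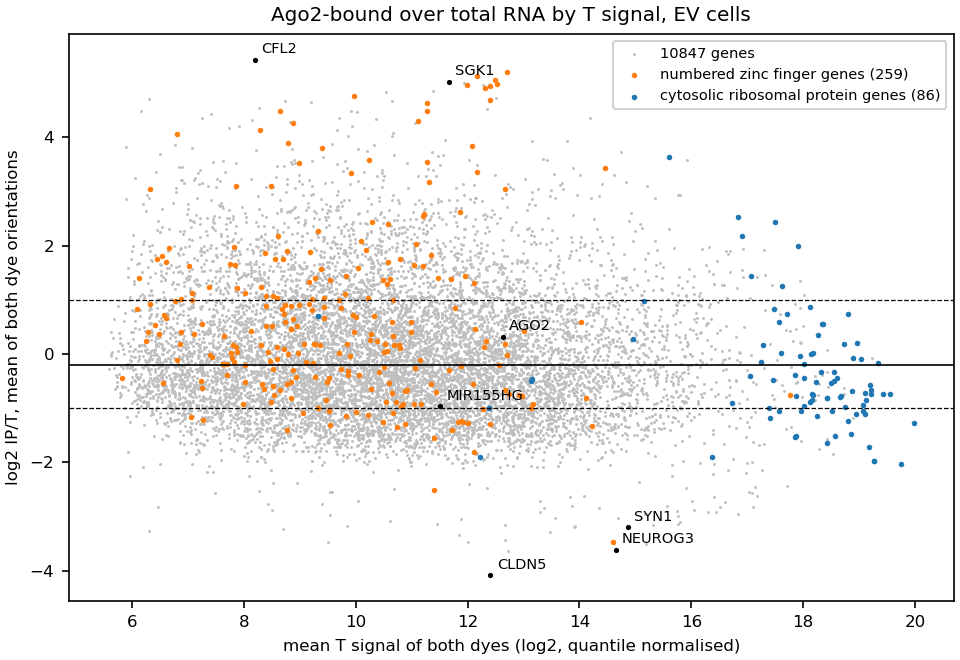
Each point is 1 gene, with the mean T signal of both dyes on the x axis (log2) and log2 IP/T (mean of both dye orientations) on the y axis. The solid line is the median over all genes (−0.20), the dashed lines mark 2-fold in either direction, and a band of zinc finger genes (orange) lies near the top while most cytosolic ribosomal protein genes (blue) lie below 0.

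Markers of the cell line were checked in T. All 15 listed markers of Hodgkin Reed-Sternberg cells were well above background in both T channels, among them TNFRSF8 (CD30) at a mean T signal of 13.99 and the chemokine CCL17 at 17.66 (log2). Of the 12 B-lineage markers with a probe, 9 were detected. MS4A1, CD22 and EBF1 were not, and loss of B-cell genes is a known trait of these cells. Markers of other cells were also detected in part, so T does not show the B-lineage label by detection alone. Of 10 T cell markers, CD2, CD3E, CD4 (14.20), CD7, CD8A and LCK were detected, and CD3D, CD3G, CD5 and TRAT1 were not. Of 8 myeloid markers with a probe, CD14, CSF1R, S100A8 and ITGAM were detected, and LYZ, MPO, S100A9 and CD163 were not. Among epithelial and erythroid markers, KRT8 (11.44), KRT18, CDH1, HBA1 (8.09) and ALAS2 were detected, and EPCAM, KRT19 and HBB were not.

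The top of the ranking held an actin regulator, a survival kinase, an antiproliferative factor and many zinc finger proteins. As deposited, the highest gene was CFL2, an actin-depolymerising cofilin. Its T signal was 8.20 in Cy3 and 8.19 in Cy5, and its IP signal was 13.53 in Cy3 and 13.72 in Cy5 (log2). The IP/T of CFL2 was thus 43.2-fold (5.43 ± 0.13, log2), with both IP channels far above both T channels. It was dim in T, and after normexp its value was 4.02, the lowest of the 12 highest genes, while ZNF254 stayed at 5.13. SGK1, a kinase downstream of PI3K, had T signals of 11.76 and 11.57 and IP signals of 16.75 and 16.64 in Cy3 and Cy5, a ratio of 32.6-fold (5.03 ± 0.21). BTG2, an antiproliferative partner of the CCR4-NOT deadenylase, had T signals of 11.86 and 12.03 and IP signals of 16.99 and 16.91, a ratio of 32.1-fold (5.00 ± 0.07). MMD followed at 4.96 ± 0.08 and FAM222B at 4.85 ± 0.28. The other 7 of the 12 highest genes were numbered zinc finger genes: ZNF254, ZNF430, ZNF92, ZNF680, ZNF681, ZNF100 and ZNF429, from 4.90 to 5.20. No T channel reached an IP channel in any of the 12.

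Outside the 12, several genes of immune or cell-cycle interest stood close behind (chosen after their values were seen). S1PR1, the receptor that guides lymphocytes out of lymphoid tissue, had a T signal of only 6.49 and 6.13 in Cy3 and Cy5 and an IP signal of 11.08 and 10.93, a ratio of 4.70 ± 0.35. CD274, the immune checkpoint ligand PD-L1, was at 8.71 and 8.93 in T and at 13.04 and 13.16 in IP, a ratio of 19.4-fold (4.28 ± 0.24). WEE1, the kinase that restrains CDK1, gave 4.67 ± 0.22, and CCNJ, a cyclin, 4.66 ± 0.11. BOD1, which is needed for chromosome biorientation, gave 4.84 ± 0.02. After normexp S1PR1 was at 2.08, CD274 at 3.26, WEE1 at 3.51 and CCNJ at 3.67.

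At the other end stood CLDN5 and 11 further genes. CLDN5, a claudin of endothelial tight junctions, had T signals of 12.47 and 12.35 and IP signals of 8.04 and 8.62 in Cy3 and Cy5, a T/IP of 16.9-fold (−4.08 ± 0.33), but −2.82 after normexp, where ZSCAN10 (−3.16) was the lowest of the 12. NEUROG3, a transcription factor of the endocrine pancreas, was at 14.50 and 14.79 in T and at 10.97 and 11.10 in IP (−3.61 ± 0.30). SYN1, a protein of synaptic vesicles, was at 14.76 and 14.97 in T and at 11.58 and 11.76 in IP (−3.20 ± 0.28). The remaining 9 of the 12 lowest were GPR78, ZSCAN10, ZNF575, KCNJ12, GNRH2, CYP4F2, OTUD7A, PCSK1N and CMKLR1, between −3.64 and −3.23. In all 12 both T channels were above both IP channels.

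The rule for these 12 genes, which asked for IP above background, already required a T signal well above the lowest signals. Their mean T signal had a median of 12.70, against 10.56 over all genes. GNRH2 (a gonadotropin-releasing hormone) and PCSK1N (an inhibitor of prohormone convertase) had mean T signals of 12.01 and 13.47. What the probes of these genes measured in T was not tested. After normexp with an offset, ratios of dim probes shrank: CMKLR1 went from −3.23 to −0.79, KCNJ12 from −3.48 to −1.18, GNRH2 from −3.48 to −1.98 and CYP4F2 from −3.43 to −2.33. All but CMKLR1 of the 12 stayed past 2-fold, although OTUD7A (−2.19), GPR78 (−2.70) and PCSK1N (−2.70) also came closer to 0.

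**Figure D2:**
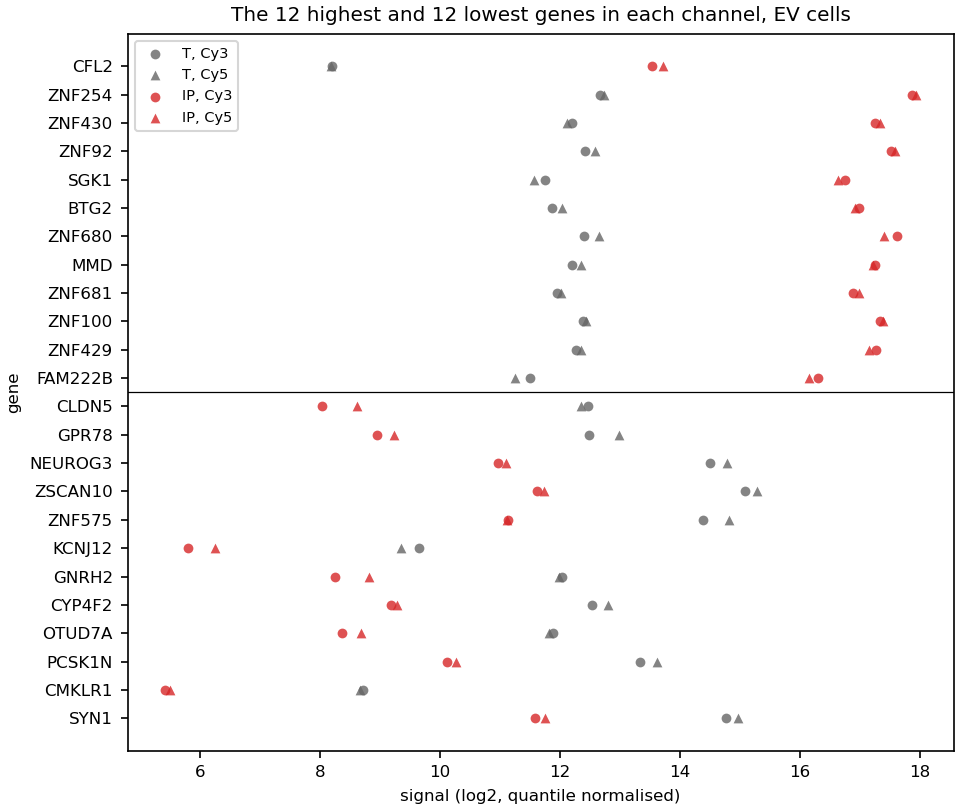
The 12 genes with the highest and the 12 with the lowest IP/T are shown with their signal (log2, x axis) in each EV channel, circles for Cy3 and triangles for Cy5, grey for T and red for IP. The T and IP points of a gene do not overlap in any of the 24 rows, and the 2 dyes of an RNA lie close together.

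Zinc finger genes formed the largest family at the top. Numbered zinc finger genes mostly code for KRAB-type or related C2H2 proteins that bind DNA, many of them repressors of transposable elements. Of 509 listed, 259 were measured, with a median IP/T of 0.36 ± 0.07, and 85 (32.8%) had an IP/T of at least 2 against 17.0% of all genes. A T/IP of at least 2 was found for 26 (10.0%) against 19.4%. The family was spread widely, from −3.48 (ZNF575) to 5.20 (ZNF254).

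Of these 85 genes, 18 came from 1 stretch of the genome. The RefSeq table was used to find runs of zinc finger genes with at most 3 other protein-coding genes between them, a grouping made after the values were seen. One run of 37 genes had 20 measured members, from ZNF101 to ZNF254, with a median IP/T of 4.27 ± 0.07. In it, 18 of 20 had an IP/T of at least 2 and 12 one of at least 16. The 7 other runs with at least 6 measured members had medians from −0.38 to 1.08, and the largest of these (20 measured members, including ZNF17) had a median of 0.17 ± 0.01. Without the leading run, the remaining 239 zinc finger genes had a median of 0.19, with 67 (28.0%) past 2-fold in IP and 26 (10.9%) in T.

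Within the run, the first 2 genes stood apart. ZNF101 (−0.93 ± 0.04) and ZNF14 (0.82 ± 0.26) at its start were below 2-fold, and from ZNF253 onward every measured gene was above it. ZNF254 had T signals of 12.67 and 12.73 and IP signals of 17.87 and 17.94 in Cy3 and Cy5. ZNF430 had T signals of 12.20 and 12.12 and IP signals of 17.25 and 17.34. The lowest of the 18, ZNF493, stood at 2.61 ± 0.15. ZNF92 (5.05 ± 0.17) and ZNF680 (4.99 ± 0.02), both among the 12 highest, lie outside the run. The genes of this run are close paralogs, so probes of different members may read each other's transcripts. Probe sequences were not used here, so the 18 values cannot be taken as 18 separate measurements.

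**Figure D3:**
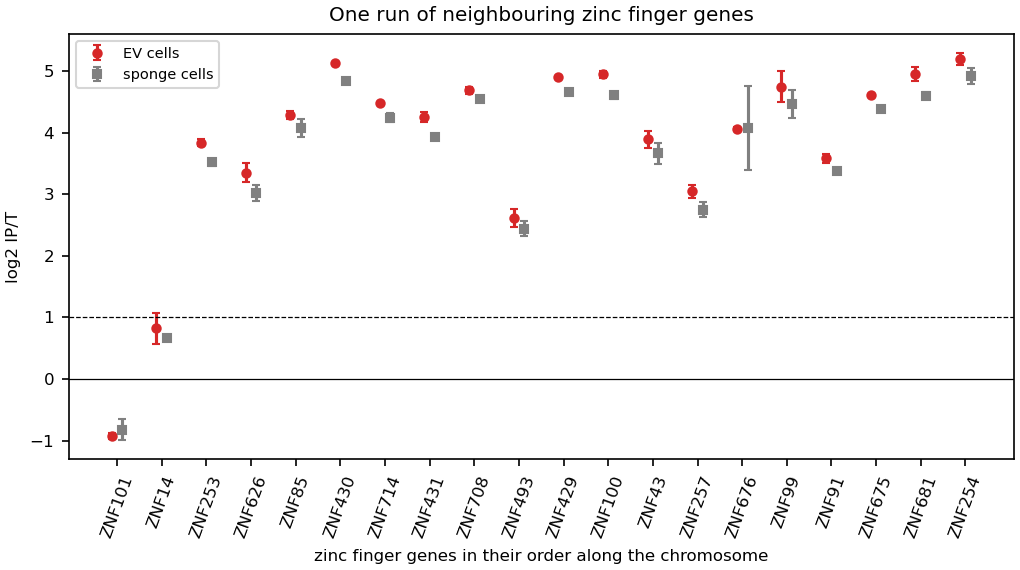
The measured zinc finger genes of the leading run are placed in their order along the chromosome (x axis, equal steps), with log2 IP/T (y axis) in EV cells (red circles) and sponge cells (grey squares). Bars are the SD over the 2 dye orientations, the dashed line marks 2-fold, and the first 2 genes lie below it while the other 18 lie above.

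Known microRNA targets were shifted towards IP, in lists written with earlier results of these data known. The miR-155 list also holds DET1, which the authors picked as a target from their own Ago2 precipitates of another cell line. In the 14 lists for families of lymphoid cells, 185 genes were measured, with overlapping membership. Their median IP/T was 0.99 ± 0.08, against −0.20 over all genes. An IP/T of at least 2 was found for 92 (49.7%) against 17.0% of all genes, and a T/IP of at least 2 for 5 (2.70%) against 19.4%. Targets from the 3 lists for microRNAs of muscle (the miR-1 family), liver (miR-122) and brain (miR-124) served for comparison. Their 57 measured genes had a median of 0.37 ± 0.02, with 16 (28.1%) past 2-fold in IP and 5 (8.77%) in T. Leaving out genes that also stand in a lymphoid list gave 51 genes with a median of 0.32 ± 0.03 and 14 (27.5%) past 2-fold in IP. The difference between both pools was not tested. In either orientation alone, the lymphoid pool had 89 and 97 genes past 2-fold in IP, and the comparison pool 16 and 20.

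Of the single families, let-7 had the highest median at 1.77 ± 0.13, with 14 of 21 measured targets (66.7%) past 2-fold in IP. All counts of this paragraph stand beside 17.0% of all genes past 2-fold in IP. Below it, miR-142 had 1.73 ± 0.15 with 9 of 14, miR-21 1.59 ± 0.15 with 11 of 17, and the miR-17 family 1.59 ± 0.06 with 15 of 25. The ranges of these 4 medians ± SD overlap. For miR-155 the median was 1.24 ± 0.06 with 15 of 26, for miR-9 1.22 ± 0.09 with 7 of 13, and for miR-19 1.15 ± 0.11 with 7 of 11. For miR-15/16 it was 1.03 ± 0.03 with 11 of 21, and for miR-29 1.01 ± 0.05 with 11 of 22. Other lymphoid families were lower. The medians were 0.87 ± 0.12 for miR-181 (7 of 16), 0.77 ± 0.07 for miR-25/92 (6 of 12), 0.69 ± 0.17 for miR-30 (6 of 13) and 0.64 ± 0.05 for miR-26 (4 of 13). Those of miR-30 and miR-26 were no higher than that of the miR-1 family in the comparison pool, 0.70 ± 0.10 with 8 of 23. Targets of miR-146, an NF-kB-induced microRNA, had the lowest median, 0.03 ± 0.19, with 3 of 11 past 2-fold in IP. The shares of miR-146 (27.3%) and miR-26 (30.8%) were near the 28.1% of the comparison pool. Past 2-fold in T, the highest share of a lymphoid list was 6.25% (miR-181), against 19.4% of all genes.

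Single targets show the range. Among let-7 targets, CCNJ (4.66), the transcription repressor BACH1 (3.63 ± 0.02, also a miR-155 target) and E2F5 (3.54 ± 0.06) were highest, and MYC was at 2.49, while CCND1 (0.42) and CDC34 (0.11) were not past 2-fold. MYB, a miR-155 and miR-15/16 target, had T signals of 14.07 and 13.96 and IP signals of 17.34 and 17.28 in Cy3 and Cy5 (3.30 ± 0.12). BCL2L11 (BIM), a classic target of the miR-17 cluster, had T signals of 13.00 and 13.07 and IP signals of 16.29 and 16.24, a ratio of 9.39-fold (3.23 ± 0.02). The miR-155 target DET1, a ubiquitin ligase component, was at 4.36 ± 0.04.

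**Figure D4:**
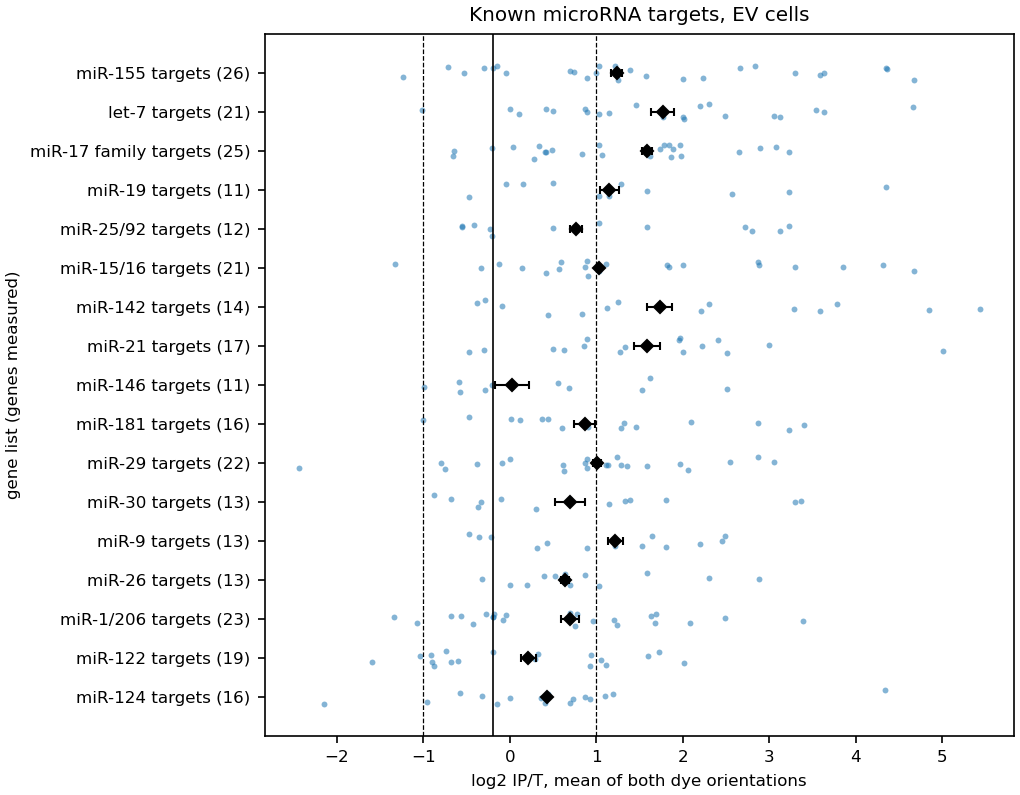
Each blue point is 1 measured gene of a list of known microRNA targets, with its log2 IP/T on the x axis (jittered vertically), and the black diamond is the list median with the SD over both dye orientations. The solid line is the median over all genes (−0.20) and the dashed lines mark 2-fold; the medians of the lymphoid families run from 0.03 (miR-146) to 1.77 (let-7), and those of the muscle, liver and brain lists are 0.70, 0.22 and 0.43.

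Transcripts of the silencing machinery were past 2-fold in IP at a share near that of all genes. Of 17 measured genes for Argonautes and microRNA biogenesis, 4 (23.5%) had an IP/T of at least 2 against 17.0% of all genes, and 1 (5.88%) a T/IP of at least 2 against 19.4% (median 0.67 ± 0.05). The transcript of AGO2 was at 12.76 and 12.51 in T and at 13.02 and 12.89 in IP (0.32 ± 0.27), so both fractions were near equal. AGO1 (0.67) and AGO3 (0.21) were also below 2-fold, and AGO4 was at 1.39 ± 0.25. TNRC6A, the scaffold that links Argonaute to deadenylation, had T signals of 8.86 and 9.12 and IP signals of 12.11 and 12.45, a ratio of 9.80-fold (3.29 ± 0.42). DICER1, the nuclease that cuts microRNA precursors and a known let-7 target, was at 2.19 ± 0.10. DGCR8, which works with DROSHA on primary transcripts, was at −0.86 ± 0.33 and DROSHA at 0.94 ± 0.14. MIR155HG, the primary transcript of miR-155, was at 11.54 and 11.47 in T and at 10.61 and 10.48 in IP (−0.96 ± 0.15), lower in IP in both orientations.

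Of 28 deadenylation and decapping genes, 7 were past 2-fold in IP, against 17.0% of all genes, and 2 (7.14%) in T against 19.4%. BTG2 led by far, followed by BTG3 (2.04) and TOB1 (1.95), all of them adaptors of the CCR4-NOT complex, while the subunit CNOT3 was at −1.65. Among 18 proteins that bind AU-rich or related elements, 6 (33.3%) were past 2-fold in IP and 1 (5.56%) in T. ZFP36 (tristetraprolin), which marks inflammatory transcripts for decay, had T signals of 12.40 and 12.61 and IP signals of 17.33 and 17.12 (4.72 ± 0.01). Its paralogs were lower, with ZFP36L1 at 2.24 and ZFP36L2 at 1.06.

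Immediate early genes, which are induced within minutes of a stimulus and have short-lived transcripts, had the highest median of the lists. The median of the 17 measured was 2.27 ± 0.17, and 13 (76.5%) had an IP/T of at least 2 against 17.0% of all genes. Besides BTG2 and ZFP36, these included IER3 (3.49 ± 0.19), the phosphatase DUSP2 (3.31 ± 0.01) and the transcription factor EGR1 (2.83 ± 0.09). IER5 went the other way, with T signals of 15.22 and 15.40 and IP signals of 12.12 and 12.19. Its T/IP was 8.93-fold (−3.16 ± 0.17) at its probe of highest T signal. With the median over a gene's probes or the probe of highest IP/T, no listed gene had a T/IP of at least 2. FOSB was at −0.93.

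In cytokine signalling, the SOCS and CISH genes stood out, a grouping made after the values were seen. The 27 JAK-STAT genes together had a median of 0.03 ± 0.14, with 7 (25.9%) past 2-fold in IP against 17.0% of all genes and 2 (7.41%) in T against 19.4%. Of the 8 SOCS and CISH genes, which shut JAK-STAT signalling down, 7 had an IP/T of at least 2 and the median was 2.83. SOCS1 had T signals of 14.02 and 14.36 and IP signals of 18.57 and 18.50 in Cy3 and Cy5, a ratio of 20.3-fold (4.35 ± 0.19). SOCS5 (4.35 ± 0.27), SOCS6 (4.14 ± 0.01) and SOCS3 (3.36 ± 0.03) were close to it, and SOCS2 (0.03) was the exception. After normexp SOCS5 was at 2.41, and SOCS4 (0.76) and SOCS7 (0.46) were short of 2-fold. The other inhibitors of the list were not past 2-fold, among them PIAS1 (0.77) and the phosphatase PTPN6 (−0.59). None of the 7 STAT genes and none of the 4 JAK genes was past 2-fold in IP. STAT5A (−1.72 ± 0.19) and TYK2 (−1.23) were past it in T.

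The NF-kB pathway, which is constantly active in Hodgkin lymphoma, had members past 2-fold among inhibitors and activators. Of 25 genes, 10 had an IP/T of at least 2 (40.0%) against 17.0% of all genes, and none a T/IP of at least 2 against 19.4%. The 4 measured subunits lay between −0.99 (RELB) and 0.26 (REL). Of 7 IkB proteins and TNFAIP3 partners (grouped after the values were seen), 5 were past 2-fold in IP: BCL3 (3.14 ± 0.22), NFKBIA (1.96 ± 0.11), NFKBIE (1.46), TNIP2 (1.37) and TNFAIP3, known as A20 (1.28 ± 0.21). The inhibitors NFKBIB (−0.74), TNIP1 (−0.88) and CYLD (−0.47) were below 0, and the activating kinases MAP3K14 (1.61) and MAP3K7 (1.11) were past 2-fold in IP. The adaptor TAB2 (3.58 ± 0.28), a miR-155 and miR-142 target, and BIRC3 (3.32 ± 0.01), an inhibitor of apoptosis, were the highest of the list.

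Regulators of apoptosis had members past 2-fold on both sides. Of 28 genes, 10 (35.7%) were past 2-fold in IP against 17.0% of all genes, and 5 (17.9%) in T against 19.4%. BH3-only proteins, which start apoptosis, were divided. BCL2L11, PMAIP1 (NOXA, 3.16 ± 0.15) and BMF (1.96) were past 2-fold in IP. HRK (−2.85 ± 0.15), BBC3 (PUMA, −2.44 ± 0.27) and BAD (−1.56) were past it in T. With the median over a gene's probes 4 genes of the list were past 2-fold in T, and 3 with the probe of highest IP/T. BBC3 was not past it under either rule. BAX, a pore-forming effector, had T signals of 13.53 and 14.12 and IP signals of 11.10 and 11.29 (−2.63 ± 0.55), whereas its relative BAK1 was at 1.60 ± 0.02. MCL1, a short-lived survival protein, was at 2.87 ± 0.06, BCL2 at 0.90 and BCL2L1 (BCL-XL) at −0.22.

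TGF-beta receptors and SMADs had a median of 1.62 ± 0.13 with 10 of 17 (58.8%) past 2-fold in IP against 17.0% of all genes, among them the receptor TGFBR3 (2.72 ± 0.28), while the ligand TGFB1 was at −1.02 ± 0.06. Most of these genes were dim in T (median 8.63), and after normexp their median was 0.88 with 6 of 17 past 2-fold. Of 25 genes for G1 control, 7 (28.0%) were past 2-fold in IP against 17.0% of all genes, and none in T against 19.4%. E2F5, E2F3 (2.89) and E2F2 (1.62) were high, while E2F1 was at −0.20. The kinases AKT1 and AKT2 were at −1.09 and −1.13, but at −0.30 and −0.92 after normexp.

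Antigen presentation genes had the lowest median of the plotted pathways, −0.82 ± 0.16. Of 27 genes, 10 (37.0%) had a T/IP of at least 2 against 19.4% of all genes, and 5 (18.5%) an IP/T of at least 2 against 17.0%, among them the chaperones CANX (1.48) and CALR (1.30). The class I heavy chains HLA-F (−1.33), HLA-E (−1.20), HLA-C (−1.08) and HLA-B (−1.05) were past 2-fold in T. The class II chaperones HLA-DMA (−1.66 ± 0.08) and CD74 (−1.32 ± 0.02) were also low. B2M, the light chain of class I, was at 15.48 and 15.28 in T and at 17.37 and 17.23 in IP (1.92 ± 0.24), opposite to these heavy chains. HLA-DQA1 was at 1.86 ± 0.18 and HLA-DQB1 at −1.59. HLA genes are highly polymorphic paralogs, so their probes may not read every allele alike. After normexp, 5 of the 27 were past 2-fold in T, against 5.65% of all genes, and HLA-B, HLA-C, HLA-E and CD74 no longer were.

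Several lists of housekeeping machinery had medians below that of all genes. Those of glycolysis enzymes (−0.19) and of translation initiation and elongation factors (−0.25) were close to it. Heat shock proteins and chaperones (0.09) and ubiquitin-conjugating enzymes (0.26) were above it. Cytosolic ribosomal proteins had a median of −0.62 ± 0.10, with 21 of 86 (24.4%) past 2-fold in T against 19.4% of all genes, and 7 (8.14%) in IP against 17.0%. The T share depended on the scaling. It was 16.3% against 19.3% of all genes with each channel scaled to its 75th percentile, and 30.2% against 5.65% after normexp. Their T signals were the brightest of all lists (median 18.21 against 10.56 over all genes). RPL13 was at 19.62 and 19.89 in T and at 17.58 and 17.87 in IP (−2.03 ± 0.40). RPL22 was the exception, with T signals of 15.46 and 15.76 and IP signals of 19.30 and 19.18, a ratio of 12.4-fold (3.63 ± 0.14). RPS24 (2.53 ± 0.19) and RPLP0 (2.44 ± 0.09) were also high. Mitochondrial ribosomal proteins had a median of −0.61 ± 0.11, with 26 of 76 (34.2%) past 2-fold in T against 19.4% of all genes.

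The nuclear-encoded respiratory chain had a median of −0.42 ± 0.17 with 19 of 80 (23.8%) past 2-fold in T, against 19.4% of all genes. Proteasome subunits had −0.41 ± 0.08 with 10 of 37 (27.0%), and DNA replication genes −0.43 ± 0.20 with 10 of 41 (24.4%). These shares in T were not far above that of all genes. Past 2-fold in IP were 9 respiratory chain genes (11.25%), 1 proteasome gene (2.70%) and 3 DNA replication genes (7.32%), against 17.0% of all genes. After normexp the shares in T were, in the same order, 21.25%, 13.5% and 9.76%, against 5.65% of all genes. Replication-dependent histone genes, whose transcripts carry no poly(A) tail, had no member past 2-fold in IP against 17.0% of all genes, and 10 of 58 (17.2%) past it in T, below the 19.4% of all genes (median −0.33 ± 0.14). Mitosis genes had a median of −0.11 ± 0.15, and this median was 0.06 after normexp. Of 30 mitosis genes, 6 (20.0%) were past 2-fold in IP against 17.0% of all genes, and 5 (16.7%) in T against 19.4%. Cholesterol synthesis had a lower median, −0.70 ± 0.16, but both of its shares were above those of all genes. Of its 25 genes, 6 (24.0%) were past 2-fold in IP against 17.0%, and 7 (28.0%) in T against 19.4%. In it, the synthase HMGCS1 (2.65 ± 0.03) and MSMO1 (2.37 ± 0.21) were high, while PMVK and SCAP were both at −1.36.

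**Figure D5:**
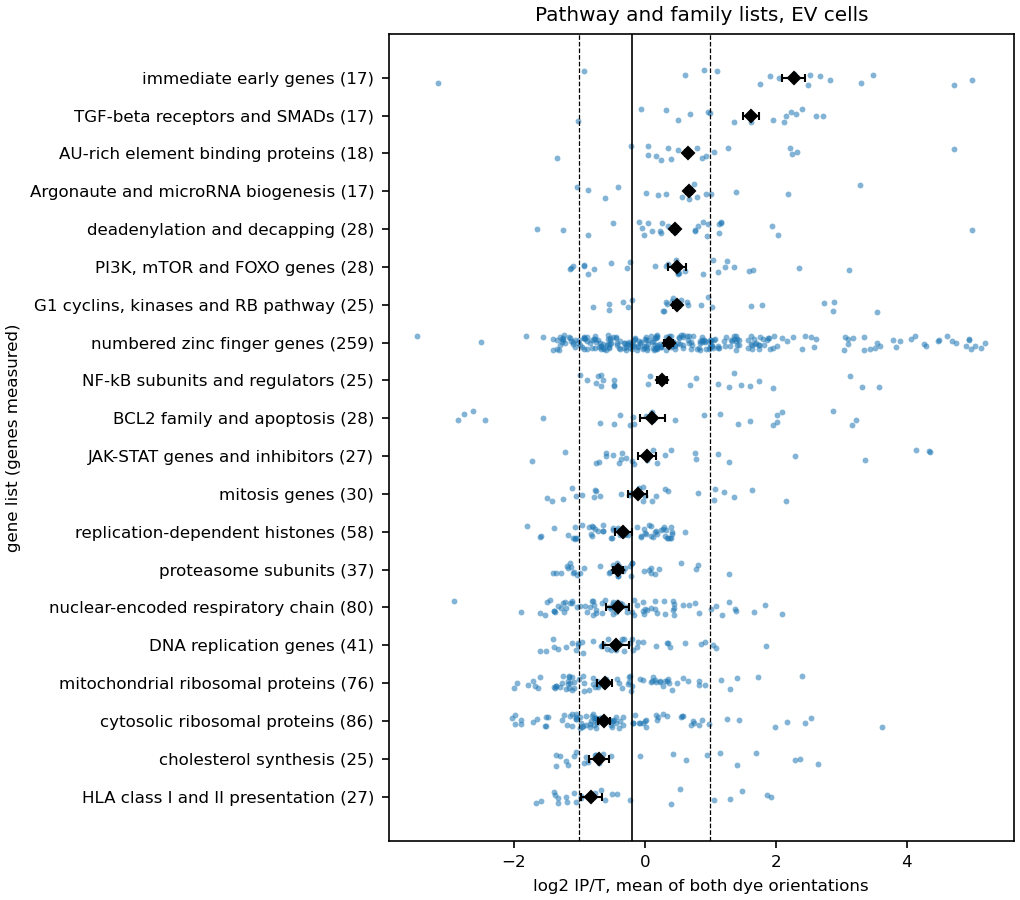
Each blue point is 1 measured gene of a pathway or family list, with its log2 IP/T on the x axis (jittered vertically), and the black diamond is the list median with the SD over both dye orientations. The solid line is the median over all genes (−0.20) and the dashed lines mark 2-fold; medians run from 2.27 for immediate early genes to −0.82 for antigen presentation, and most lists have members on both sides.

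Gene length went with IP/T, while promoter composition had almost no rank correlation with it. From the shortest to the longest quartile of genes (median spans of 5350 and 119000 bases, introns included), the median IP/T went from −0.49 to 0.02 and the share with a T/IP of at least 2 from 27.5% to 12.2%. Spearman's rho across the 10847 genes was 0.18. For the GC content of the promoter, available for 8895 genes (82.0%), rho was −0.0034. Both shares past 2-fold were higher in its highest than in its lowest quartile. The share with an IP/T of at least 2 was 19.75% against 15.99%. That with a T/IP of at least 2 was 19.97% against 16.39%. Mean T signal, which is itself part of IP/T, gave a rho of −0.09. Genes share the same 4 channels and are not independent, and no p is given.

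The sponge cells gave nearly the same ranking. Across the 21493 probes the Pearson correlation of IP/T between both populations was 0.98, on arrays of the same slide. Of the 1848 EV genes past 2-fold in IP, 1679 were past it in sponge cells too and none changed sign. Of the 2101 past 2-fold in T, 1714 were past it in sponge cells and 1 changed sign. The 12 highest genes were at 4.54 to 4.98 in sponge cells and the 12 lowest at −4.00 to −3.14. The leading zinc finger run had a median of 4.08 there, beside 4.27 in EV cells. Known miR-155 targets had a median of 1.09 in sponge cells and 1.24 in EV cells, and let-7 targets 1.54 and 1.77. With 1 sample per population, these differences were not tested.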

How the data were processed

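Ago2-bound and total RNA of L1236 EV cells were hybridised to Agilent two-colour arrays, with 1 sample per group and 2 dyes each. Per the file headers, the authors extracted spot intensity values with Feature Extraction 10.7.3.1 (the submitters' processing notes give 10.5.1.1). The deposited series table holds the authors' quantile-normalised log2 values, filtered by them on the consistency of Cy3 and Cy5. Here, IP/T was computed as log2 IP minus log2 T per array and averaged over both dye orientations. Flags came from the channel of each sample's dye, leaving out outlier spots. No spot was saturated. The share of spots well above background was 61.0% to 65.6% in the EV channels and 54.1% (T in Cy5) to 65.7% in the sponge channels. Precision is limited by the number of arrays.

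Probe accessions were matched to the RefSeq table of GRCh38.p14, used for names, gene length and neighbours, and 70.3% of probes were named. Members, lists and groupings were chosen with earlier results of these data known. Lists were described by counts and medians, without tests. Named genes were the 12 highest and 12 lowest that were well above background in all 4 EV channels with orientations of the same sign differing by less than 1, members of the lists, AGO2 and MIR155HG. Protein length was not analysed here, and some members of the lists are not reported here. The code was tested on simulated data. Python 3.11.15, R 4.3.3 and limma 3.58.1 were used. Alternatives were a re-normalisation of the processed signals, a scaling to the 75th percentile, normexp (offset 50) with loess and Aquantile, each orientation alone, other probe filters and other rules for a gene's probe.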

Additional observations from a re-analysis of the deposited data

Results flagged for a closer look

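Of the array's probes that the deposited table leaves out, 1915 were well above background in all 4 EV channels. After quantile normalisation here, 331 of them (17.3%) had an IP/T of at least 2 and 414 (21.6%) a T/IP of at least 2, with a median of −0.28. Their median SD over orientations was 0.46, against 0.16 for the genes of the table.

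In 7 genes of the lists, both dye orientations had the opposite sign in EV and in sponge cells. The log2 IP/T of GAS5, a snoRNA host gene, was −0.12 in EV and 0.12 in sponge cells. PABPC4 had −0.08 and 0.33, MSI2 0.05 and −0.25, EIF4ENIF1 0.23 and −0.10, PGAM1 −0.19 and 0.036, QARS1 −0.25 and 0.15, and XPO6 −0.20 and 0.13. All of these values are within 2-fold of equality, and the differences were not tested. Groups of 1 sample could not be searched for outlying samples.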

How the results depend on the processing

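Normexp with loess and Aquantile changed the values most. It moved the median of all probes from −0.19 to −0.01, left 2174 probes (of 3518) with an IP/T of at least 2 and 1306 (of 4231) with a T/IP of at least 2, and gave medians of 1.61 for immediate early genes, 0.23 for zinc finger genes, 0.79 for the pooled lymphoid targets and 3.85 for the leading zinc finger run. Its offset of 50 adds to every signal, which draws the ratios of dim probes towards 0. Of the 12 gene groups with a median past 2-fold, 7 stayed past it. At the gene level its background was 11.9% in IP and 5.65% in T, against 42.2% and 1.08% for the pooled lymphoid targets. Scaling to the 75th percentile gave −0.31 for cytosolic ribosomal proteins (−0.62 as reported), and the cause was not tested. The pooled muscle, liver and brain targets had a median of 0.41 with Cy3 and Cy5 within 1.5-fold, 0.27 with the median over a gene's probes and 0.56 with the probe of highest IP/T. That last rule gave 0.46 for zinc finger genes and 1.12 for the pooled lymphoid targets. With a single orientation, the medians ranged from 0.97 to 1.08 for pooled lymphoid targets, from 0.33 to 0.36 for the comparison pool, from 2.06 to 2.30 for immediate early genes and from −0.66 to −0.52 for ribosomal proteins, with 3391 to 3789 probes past 2-fold in IP and 4129 to 4542 in T. Besides AKT1, AKT2, HLA-B, HLA-C, HLA-E, CD74 and CMKLR1, normexp also ended the 2-fold call of AGO4 (0.79), CNOT3 (−0.67), SCAP (−0.99), TGFB1 (−0.52), TNFAIP3 (0.92), TYK2 (−0.95) and ZFP36L2 (0.99). AKT1 with IP in Cy3 (−0.85), TGFB1 with IP in Cy3 (−0.98) and AKT2 with IP in Cy5 (−0.97) were also short of 2-fold. Of the named genes past 2-fold, none reversed under the settings in which single genes were followed. Single genes were not followed under the other rules for a gene's probe. Nor were they followed without a filter on T or with all 4 channels well above background. Of 3323 genes with 2 or more detected probes, 22 had 1 probe past 2-fold in IP and another past 2-fold in T. Without a filter on T, 3927 probes had an IP/T of at least 2, and the 4231 with a T/IP of at least 2 were unchanged. No paired analysis was possible because each group holds 1 sample. Differences between cultures or precipitations, and the background of a control precipitate, are outside what these arrays can show.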
